A study of Mus musculus with 50 samples.

Results

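The 8 genes described here encode pore-forming subunits of inward rectifier potassium (Kir) channels. They were chosen by gene symbol, and all 8 are listed in both deposited count tables, among 24552 genes. The members are *Kcnj2* (Kir2.1), *Kcnj12* (Kir2.2) and *Kcnj4* (Kir2.3) of the Kir2 group, *Kcnj3* (Kir3.1), *Kcnj6* (Kir3.2), *Kcnj9* (Kir3.3) and *Kcnj5* (Kir3.4) of the Kir3 or GIRK group, and *Kcnj11* (Kir6.2). All 8 passed the filter on low counts in each comparison. On mm10 (GENCODE vM21 gene models), *Kcnj2* is at chr11:111066164-111076821 and *Kcnj12* at chr11:61022564-61071131 (plus strand), *Kcnj4* at chr15:79483714-79505241 (minus), *Kcnj3* at chr2:55435970-55598145 (plus), *Kcnj6* at chr16:94748636-94997701, *Kcnj9* at chr1:172320501-172329318, *Kcnj5* at chr9:32314707-32344350 and *Kcnj11* at chr7:46093953-46100764 (all minus).

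Kir channels pass potassium more easily into the cell than out of it and hold the resting membrane near the potassium equilibrium potential. Kir2 channels are open at rest and give medium spiny neurons (MSNs) of the striatum their hyperpolarized resting state. Kir3 channels are opened by the beta and gamma subunits of Gi/o proteins downstream of receptors such as GABA-B, opioid and muscarinic receptors, and Kir6.2 combines with sulfonylurea receptors to form the ATP-sensitive channel, which closes when ATP is high.

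RNA was sequenced from nucleus accumbens (NAc) of RiboTag (RT) mice, in which Cre recombinase switches on an HA-tagged ribosomal protein, so that an antibody against HA precipitates ribosomes and their mRNA from Cre-expressing cells (IP). The 28 IP libraries were 13 of genotype RT; D1-Cre (4 control, 4 resilient and 5 susceptible) and 15 of genotype RT; D2-Cre (5 in each group), called D1 IPs and D2 IPs here, and 18 input libraries held the RNA of the same kind of homogenate without precipitation (3 for each genotype and stress group). The stressed mice met an aggressive CD1 mouse for 10 min a day on up to 10 days by the labels (the study's methods give a shorter daily time) and were sorted by a social interaction test into resilient (Res) and susceptible (Sus), while control mice (Con) were housed with mice of their own strain. A further 4 D1 IPs carry the label Sirt1-KO and the genotype RT; Sirt1-floxed; D1-Cre, and come from male mice without defeat. All mice were C57BL/6, aged 8 to 12 weeks where an age is given (none is for the libraries labelled Sirt1-KO), and each library pooled punches of 2 mice. Cre followed the regulatory sequences of *Drd1* or *Drd2*, so a precipitate holds RNA of every cell type in the punch that uses them, not only of MSNs. In such bulk libraries, fewer cells of a type and less RNA per cell cannot be told apart.

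Each IP or input library held 18384265 to 31009626 counts on genes. The second table, with the D1 Con libraries and those labelled Sirt1-KO, held 22174187 to 31785984 per library. Levels are CPM, counts scaled to a common library size by TMM factors, and levels of different genes are compared only per kilobase of annotated exons (CPM/kb). Markers followed the labels: all 4 D1-MSN markers (*Drd1*, *Pdyn*, *Tac1*, *Chrm4*) were higher in D1 IPs and all 4 D2-MSN markers (*Drd2*, *Adora2a*, *Gpr6*, *Penk*) higher in D2 IPs. Against inputs of their line, however, D1 IPs were also higher in all 4 D2-MSN markers, by log2 differences of 0.33 (*Drd2*) to 1.43 (*Penk*). *Pdyn* was higher there by 1.53. In D2 IPs, *Tac1* (0.44) and *Chrm4* (0.16) were higher than in inputs, and *Pdyn* (-0.67) and *Drd1* (-0.34) were lower. Markers of 2 other neuron types moved with the line as well. The 4 markers of cortical excitatory neurons summed to 387 to 1390.0 CPM in D1 IPs, 20.6 to 309 CPM in D2 IPs and 69.3 to 1094 CPM in inputs, and the 6 markers of cholinergic interneurons to 9.02 to 34.1, 63.9 to 139 and 44.0 to 131 CPM. No marker of either list was at 0 in all libraries of a group. These sums are set beside the results below where they move with them.

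RefSeq promoters were matched to 7 of the 8 members on GRCm38.p6, the assembly also called mm10; *Kcnj11* had no entry. The 250 bases before the annotated start are printed 5′ to 3′ on the gene's own strand for the 4 Kir3 genes, whose levels differed between D1 and D2 IPs, and for *Kcnj2*, the member that was lower in D1 IPs. *Kcnj6* has 2 entries, and the one at the 5′ end of the gene is printed. Capitals mark GGGCGG (the GC box bound by Sp-family factors), TGACG (the core of the cyclic AMP response element) and TATAAA on either strand. Their positions are chr2:55435720-55435969 (plus strand) for *Kcnj3*, chr16:94997697-94997946 (minus) for *Kcnj6*, chr1:172329323-172329572 (minus) for *Kcnj9*, chr9:32344345-32344594 (minus) for *Kcnj5* and chr11:111065914-111066163 (plus) for *Kcnj2*.
Kcnj3: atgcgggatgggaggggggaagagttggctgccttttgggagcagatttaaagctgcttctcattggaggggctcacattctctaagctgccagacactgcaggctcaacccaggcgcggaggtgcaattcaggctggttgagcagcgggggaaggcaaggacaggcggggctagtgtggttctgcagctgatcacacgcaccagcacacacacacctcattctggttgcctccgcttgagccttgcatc
Kcnj6: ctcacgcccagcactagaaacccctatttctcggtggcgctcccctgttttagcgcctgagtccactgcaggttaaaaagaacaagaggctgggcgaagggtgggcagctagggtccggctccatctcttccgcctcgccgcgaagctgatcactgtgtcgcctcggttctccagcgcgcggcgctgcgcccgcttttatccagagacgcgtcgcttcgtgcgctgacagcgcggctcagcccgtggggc
Kcnj9: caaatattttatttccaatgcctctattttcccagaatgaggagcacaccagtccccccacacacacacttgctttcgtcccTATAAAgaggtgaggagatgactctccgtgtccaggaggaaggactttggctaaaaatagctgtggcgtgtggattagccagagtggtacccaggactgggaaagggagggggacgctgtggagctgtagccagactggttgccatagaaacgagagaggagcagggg
Kcnj5: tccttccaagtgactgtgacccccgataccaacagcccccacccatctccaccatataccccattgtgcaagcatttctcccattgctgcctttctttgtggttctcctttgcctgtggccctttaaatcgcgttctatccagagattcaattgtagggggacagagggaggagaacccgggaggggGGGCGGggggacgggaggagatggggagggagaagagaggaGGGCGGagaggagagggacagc
Kcnj2: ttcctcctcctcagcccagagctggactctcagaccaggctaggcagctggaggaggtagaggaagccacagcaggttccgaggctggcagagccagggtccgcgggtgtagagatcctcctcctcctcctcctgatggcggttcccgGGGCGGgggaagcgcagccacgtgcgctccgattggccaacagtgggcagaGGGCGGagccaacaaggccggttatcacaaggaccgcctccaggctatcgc
The 4 Kir3 promoters, whose genes were all higher in D1 IPs, do not share any of the 3 motifs in these windows. *Kcnj5* and *Kcnj2* hold 2 GC boxes each, *Kcnj9* holds 1 TATA motif, and *Kcnj3* and this start of *Kcnj6* hold none of the 3. Among 32851 promoters of the same length, 32.7% hold GGGCGG, 17.8% hold TGACG and 12.4% hold TATAAA. The CpG count ran from 5 in *Kcnj9* to 26 in *Kcnj6*.

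Of the 8 transcripts, *Kcnj4* stood far above the others in all kinds of library. Per kilobase, it reached 143 ± 7.76 CPM/kb (SD, n = 13) in D1 IPs, 143 ± 11.5 (SD, n = 15) in D2 IPs and 63.8 ± 10.8 (SD, n = 18) in inputs. In D1 IPs the next places were taken by *Kcnj9* at 17.9 ± 2.74, *Kcnj3* at 16.4 ± 3.68, *Kcnj11* at 16.0 ± 0.736 and *Kcnj2* at 14.3 ± 1.43 CPM/kb. The first 3 of these lay within 1 SD of their neighbors, and the gap from *Kcnj11* to *Kcnj2* was larger than either SD. *Kcnj12* followed at 8.88 ± 0.625 CPM/kb, and *Kcnj6* at 1.58 ± 0.439 and *Kcnj5* at 0.600 ± 0.0915 CPM/kb came last.

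The order differed in D2 IPs, where *Kcnj9* and *Kcnj3* took lower places and *Kcnj6* and *Kcnj5* were again last. *Kcnj2* at 16.7 ± 1.96 and *Kcnj11* at 15.2 ± 1.26 CPM/kb came next after *Kcnj4*, followed by *Kcnj9* at 11.8 ± 1.18, *Kcnj3* at 8.89 ± 1.12 and *Kcnj12* at 8.03 ± 0.562 CPM/kb. Here *Kcnj2* and *Kcnj11* were within 1 SD of each other, as were *Kcnj3* and *Kcnj12*. *Kcnj6* was at 0.610 ± 0.215 and *Kcnj5* to 0.331 ± 0.143 CPM/kb. These lengths are the union of all annotated exons, which is longer than any 1 transcript where a gene has several, as for *Kcnj6* with 10 exon blocks.

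Within the Kir2 group, *Kcnj4* made up 86.1% ± 0.865 (SD, n = 13) of the summed CPM/kb in D1 IPs and 85.2% ± 1.30 (SD, n = 15) in D2 IPs. Within the Kir3 group, *Kcnj3* and *Kcnj9* together accounted for nearly all of the level. *Kcnj9* held 49.3% ± 2.71 in D1 IPs and 54.6% ± 2.36 in D2 IPs, and *Kcnj3* held 44.7% ± 2.97 and 41.1% ± 2.68. *Kcnj6*, which encodes the GIRK2 subunit that can form channels by itself, held 4.30% ± 0.790 in D1 IPs and 2.79% ± 0.856 in D2 IPs but 8.27% ± 1.35 (SD, n = 18) in inputs. The ratio of summed Kir3 to summed Kir2 levels was 0.220 ± 0.0412 in D1 IPs (0.146 to 0.310), 0.130 ± 0.0162 in D2 IPs (0.105 to 0.156) and 0.358 ± 0.0632 in inputs (0.232 to 0.516). The ranges of D1 and D2 IPs overlapped at their ends, and all inputs were above all D2 IPs.

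**Figure D1:**
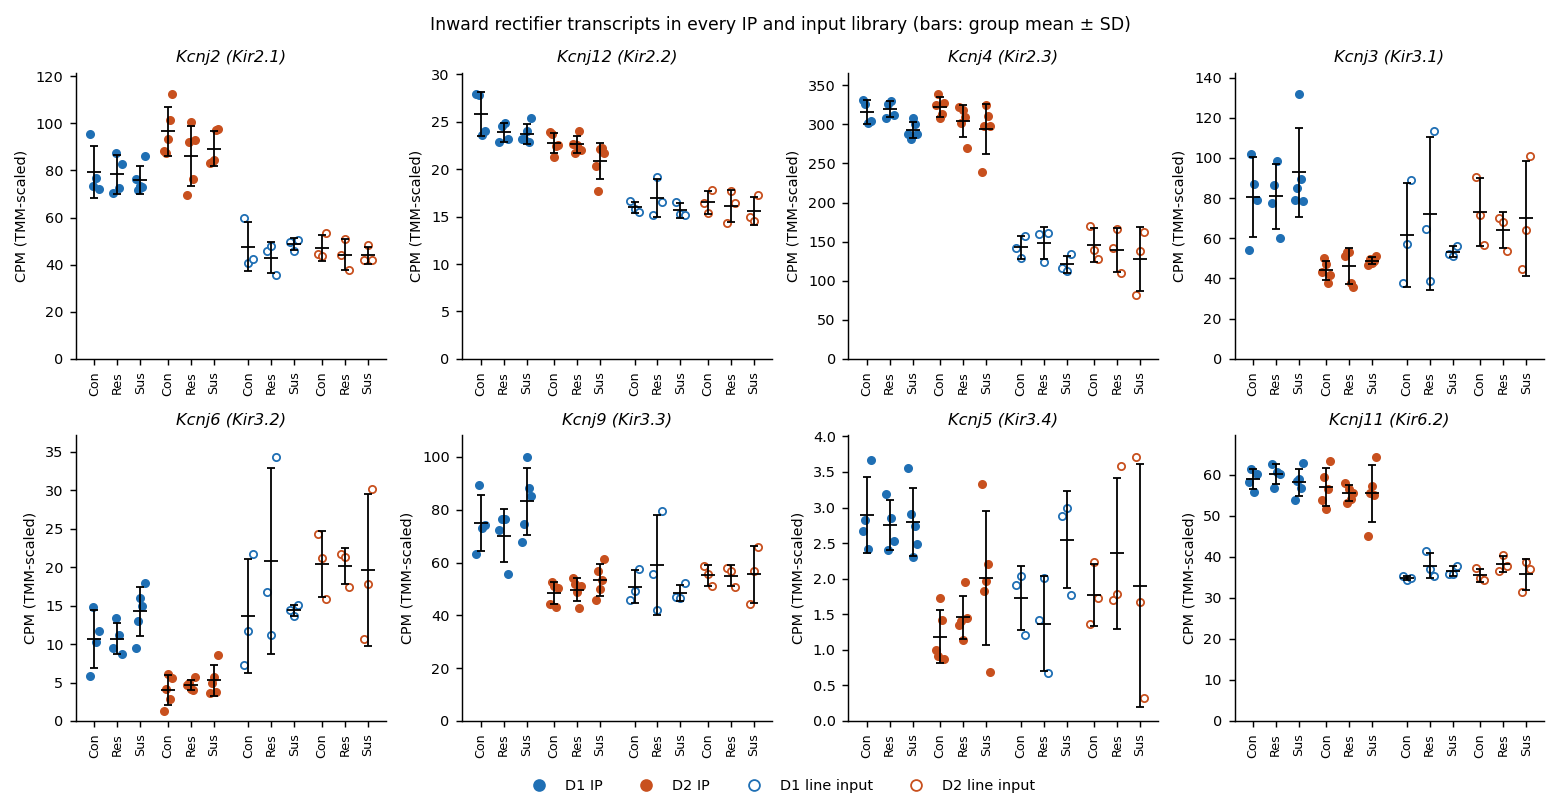
Normalized level (CPM, linear axis from 0) of each of the 8 Kir genes in every IP (filled) and input (open) library by line and stress group, with group mean ± SD as bars. *Kcnj3*, *Kcnj6*, *Kcnj9* and *Kcnj5* sit higher in D1 than in D2 IPs, whereas *Kcnj4* lies near 308 CPM in both and about 137 CPM in inputs.

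The comparison of D1 with D2 IPs asks which transcripts differ between the precipitates of the 2 lines. Over the mean of the stress groups, 6 of the 8 members differed, 5 of them higher in D1 IPs, where 40.6% of the 14224 genes tested differed, 19.5% higher and 21.2% lower. The 4 Kir3 genes had the largest differences, and 3 members passed a fold of 1.5, which 7.62% of all genes did. Their values by library follow, from Kir2 to Kir3 to Kir6.

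*Kcnj4* (Kir2.3), the most abundant Kir2 subunit here, had 331, 326, 301 and 305 CPM in D1 Con, 308, 326, 329.5 and 312 CPM in D1 Res and 287, 282, 308, 299.9 and 288 CPM in D1 Sus. In D2 IPs it had 325, 338, 308, 313 and 327 CPM in Con, 322, 302, 318, 309 and 269.6 CPM in Res and 239, 297, 324, 311 and 298 CPM in Sus. The lines overlapped almost fully, and the lowest value was that of a D2 Sus library. The log2 difference of D1 from D2 was -0.00 with a 95% interval of -0.07 to 0.07 (edgeR, adjusted p = 0.975).

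*Kcnj2* (Kir2.1), the founding member of the Kir2 group, had 95.6, 73.4, 76.7 and 72.1 CPM in D1 Con, 70.2, 87.6, 72.7 and 82.7 in D1 Res and 76.2, 71.9, 73.3, 72.8 and 86.3 in D1 Sus. In D2 IPs it had 88.4, 87.6, 93.2, 101 and 112 CPM in Con, 69.5, 91.9, 100.4, 76.3 and 93.1 in Res and 83.3, 83.7, 84.3, 97.0 and 97.5 in Sus. Most D2 libraries were above most D1 libraries, but the ranges overlapped widely, since the lowest value was that of a D2 Res library and 1 D1 Con library reached 95.6 CPM. The level was lower in D1 IPs by a log2 difference of -0.23 (SE 0.0567, adjusted p = 0.00177).

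*Kcnj12* (Kir2.2) ranged from 22.9 to 27.9 CPM in D1 IPs and from 17.8 to 24.0 CPM in D2 IPs, with medians of 24.0 and 22.2 CPM. The ranges overlapped between 22.9 and 24.0 CPM, and the log2 difference was 0.13 (SE 0.0383, adjusted p = 0.00545). Within the Kir2 group, then, *Kcnj12* was higher and *Kcnj2* lower in D1 IPs, by 1.098-fold and 1.17-fold.

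*Kcnj3* (Kir3.1) encodes a subunit that reaches the membrane only with another Kir3 subunit. It had 54.0, 102, 87.1 and 79.2 CPM in D1 Con, 77.7, 86.7, 98.6 and 60.1 in D1 Res and 79.0, 85.2, 132, 89.6 and 78.8 in D1 Sus. In D2 IPs it had 43.4, 49.998, 47.4, 37.7 and 41.6 CPM in Con, 51.4, 53.0, 53.4, 37.6 and 35.6 in Res and 46.6, 49.7, 47.9, 48.7 and 51.3 in Sus. All 13 D1 IPs lay above all 15 D2 IPs, although the lowest D1 Con library cleared the highest D2 Res library by under 1 CPM. Of all genes tested, 2.82% had ranges that did not overlap in either direction. The mean was 85.4 ± 19.2 CPM (SD, n = 13) against 46.4 ± 5.83 CPM (SD, n = 15), a 1.81-fold difference (log2 0.86, SE 0.0967, adjusted p = 1.41e-07).

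*Kcnj6* (Kir3.2) showed the largest difference of the family. It had 5.89, 14.8, 10.3 and 11.7 CPM in D1 Con, 9.55, 13.3, 11.2 and 8.72 in D1 Res and 9.52, 13.0, 16.0, 15.02 and 17.9 in D1 Sus. In D2 IPs it had 1.28, 4.11, 6.13, 2.89 and 5.55 CPM in Con, 4.63, 4.93, 4.15, 3.98 and 5.69 in Res and 3.66, 4.92, 5.70, 3.72 and 8.54 in Sus. The ranges overlapped through the lowest D1 Con library, which lay below 2 of the D2 IPs. The log2 difference was 1.34 (SE 0.174, adjusted p = 1.1e-06), or 2.53-fold.

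*Kcnj9* (Kir3.3), a subunit that acts in heteromers, had 63.4, 89.2, 73.0 and 74.2 CPM in D1 Con, 72.2, 76.6, 76.4 and 55.7 in D1 Res and 67.7, 74.4, 100.2, 88.1 and 85.3 in D1 Sus. In D2 IPs it had 44.5, 52.8, 51.1, 43.3 and 50.2 CPM in Con, 54.1, 51.8, 48.9, 42.8 and 51.3 in Res and 46.0, 56.8, 49.9, 53.4 and 61.4 in Sus. A single D1 Res library lay within the D2 range, and the other D1 IPs lay above it. The log2 difference was 0.58 (SE 0.0623, adjusted p = 2.39e-08), or 1.49-fold.

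*Kcnj5* (Kir3.4), best known from the atrium of the heart, where it pairs with Kir3.1, was the scarcest member. It had 2.68, 2.82, 2.42 and 3.66 CPM in D1 Con, 3.197, 2.41, 2.85 and 2.54 in D1 Res and 3.55, 2.90, 2.31, 2.74 and 2.48 in D1 Sus. In D2 IPs it had 0.992, 0.914, 1.73, 1.43 and 0.869 CPM in Con, 1.35, 1.41, 1.13, 1.96 and 1.44 in Res and 3.33, 1.83, 1.97, 2.21 and 0.686 in Sus. All D2 IPs except 1 Sus library at 3.33 CPM were below all D1 IPs. The log2 difference was 0.87 (SE 0.151, adjusted p = 2.79e-05), or 1.82-fold.

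*Kcnj11* (Kir6.2), the pore of the ATP-sensitive channel, ranged from 53.8 to 62.8 CPM in D1 IPs (median 58.8) and from 45.0 to 64.4 CPM in D2 IPs (median 55.6). The D1 range lay inside the D2 range. The log2 difference was 0.06 with a 95% interval of -0.02 to 0.15 (adjusted p = 0.209).

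Within stress groups the same comparison rested on 4 or 5 libraries a side. In Con, 5 members differed between the lines (13.7% of all genes did), in Res 4 (17.2%) and in Sus 3 (17.4%). In Sus, 5 had an unadjusted p under 0.05, as 29.6% of genes did. *Kcnj3* was higher in D1 IPs by log2 differences of 0.86, 0.80 and 0.91 in Con, Res and Sus (adjusted p = 0.00118, 0.00200 and 0.000260). *Kcnj6* was higher by 1.41, 1.19 and 1.42 (adjusted p = 0.00303, 0.00836 and 0.00100) and *Kcnj9* by 0.62, 0.48 and 0.62 (adjusted p = 0.000270, 0.00264 and 8.80e-05). These 3 genes therefore passed the test in each stress group.

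*Kcnj5* and *Kcnj2* passed it in some stress groups. *Kcnj5* differed by 1.25 in Con (adjusted p = 0.00176) and 0.90 in Res (adjusted p = 0.0183), and its value in Sus was 0.45 (adjusted p = 0.230). Its call in Res was lost without D1 Res replicate 1 (0.82, adjusted p = 0.0643), and in Sus the value rose to 0.72 (adjusted p = 0.0393) without D2 Sus replicate 1. *Kcnj2* was lower in D1 Con than in D2 Con (-0.29, adjusted p = 0.0483), a call lost in 15 of the 28 fits that left out 1 library. The fits ran from -0.39 to -0.24, with adjusted p from 0.00614 to 0.158, the highest without D1 Con replicate 2. In Sus, leaving out 1 library brought *Kcnj2* under the threshold in 2 of 28 fits (lowest adjusted p = 0.0364) and *Kcnj12* in 1 (0.0496).

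**Figure D2:**
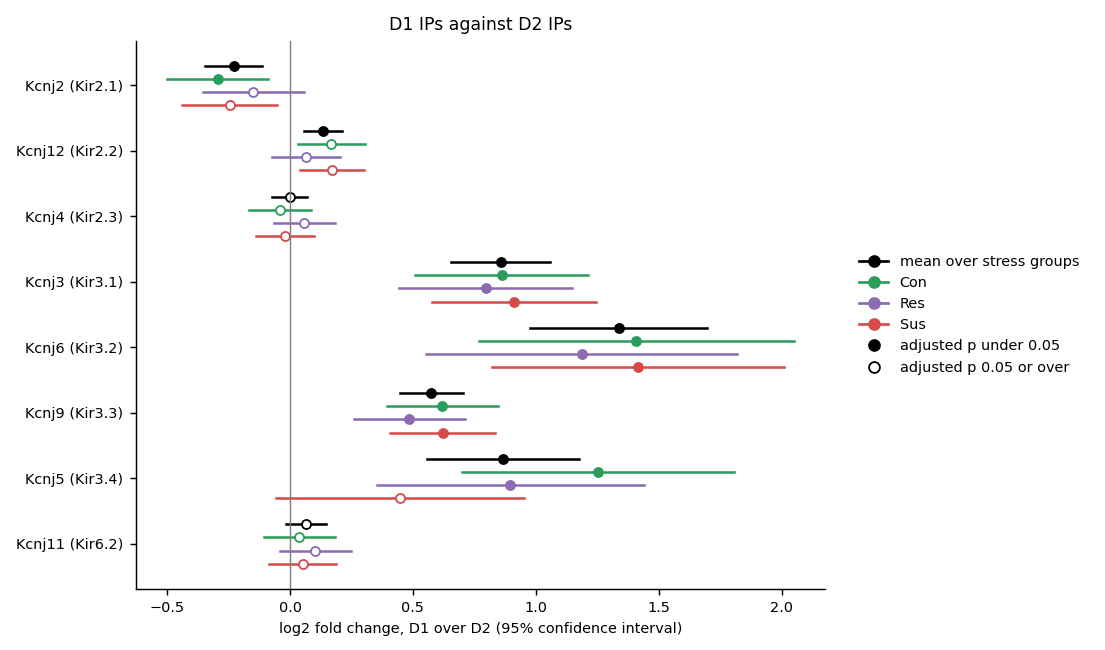
Log2 difference in level of D1 from D2 IPs for each Kir gene, over the mean of the stress groups and within Con, Res and Sus, with 95% intervals; filled points have an adjusted p under 0.05. The intervals of *Kcnj3*, *Kcnj6* and *Kcnj9* lie above 0 in each group, and those of *Kcnj4* and *Kcnj11* span 0.

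Cortical excitatory markers moved in the same direction as the Kir3 genes. All 4 of 4 (*Slc17a7*, *Neurod2*, *Neurod6*, *Tbr1*) were higher in D1 IPs, with log2 differences of 1.62 to 2.23, and their summed range in D1 IPs (387 to 1390.0 CPM) lay above that in D2 IPs (20.6 to 309 CPM). *Slc17a7*, the vesicular glutamate transporter of cortical neurons, had a mean level of 645 CPM in D1 and 135 CPM in D2 precipitates. Cholinergic markers moved the other way, with 4 of 6 lower in D1 IPs, among them *Chat* at 2.42 against 23.9 CPM. The part of these cells in the Kir differences was not tested. For *Kcnj3*, the paper also reports in situ hybridization, among several genes it selected as specific to an MSN subtype.

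Across libraries of 1 kind, the levels of *Kcnj3* and *Kcnj9* rose and fell with the summed cortical markers. Those of *Kcnj6* did so in inputs and D1 IPs, and *Kcnj5* did not. Pearson's r of log2 levels was computed for the 8 members in D1 IPs, D2 IPs and inputs, 24 relations in all, with permutation tests of 100000 relabellings and adjustment over the 24. In the 18 inputs, which have no precipitation step, *Kcnj3* gave r = 0.86 and Spearman's rho = 0.98 (permutation p = 1e-05 for both, the smallest possible, adjusted p = 6e-05 and 8e-05), and r = 0.96 without the 2 libraries farthest from the median. *Kcnj6* gave r = 0.85 and rho = 0.95 (0.93 without them) and *Kcnj9* r = 0.85 and rho = 0.98 (0.94 without them). *Kcnj5* went the other way, with r = -0.73 and rho = -0.80 (permutation p = 0.00152 and 0.00014, adjusted p = 0.00456 and 0.00056) and r = -0.77 without the 2 libraries.

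In the 13 D1 IPs the relation was r = 0.95 and rho = 0.87 for *Kcnj3* (permutation p = 1e-05 and 0.00022, adjusted p = 6e-05 and 0.000754), with r = 0.87 without the 2 farthest libraries. It was r = 0.84 and rho = 0.80 for *Kcnj6* (0.72 without them; adjusted permutation p = 0.0012 and 0.00468) and r = 0.91 and rho = 0.91 for *Kcnj9* (0.91; adjusted permutation p = 0.0002 and 0.00018). In the 15 D2 IPs, *Kcnj3* gave r = 0.60 and rho = 0.66 (0.83 without 2; adjusted permutation p = 0.0358 and 0.0233) and *Kcnj9* r = 0.69 and rho = 0.62 (0.63; 0.0102 and 0.0372). *Kcnj6* gave r = 0.40 and rho = 0.56 there, which did not pass (adjusted permutation p = 0.209 and 0.0698).

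Outside the Kir3 group the relations were fewer. *Kcnj4* gave r = 0.88 and rho = 0.81 in inputs (0.87 without 2; adjusted permutation p = 6e-05 and 0.00056) but r = -0.04 in D1 IPs. Its r of 0.63 in D2 IPs (adjusted permutation p = 0.0358) had a rho of 0.21 and fell to 0.28 without the 2 farthest libraries, and *Kcnj11* in D2 IPs likewise went from 0.62 to 0.20, so these 2 relations rest on those libraries. *Kcnj2* and *Kcnj12* gave no relation that passed in any kind of library, and *Kcnj5* none in IPs. Depth, dissection and cell makeup are shared by all genes of a library, and sequencing batches are not assigned to libraries in the labels, so values within batches could not be computed.

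**Figure D3:**
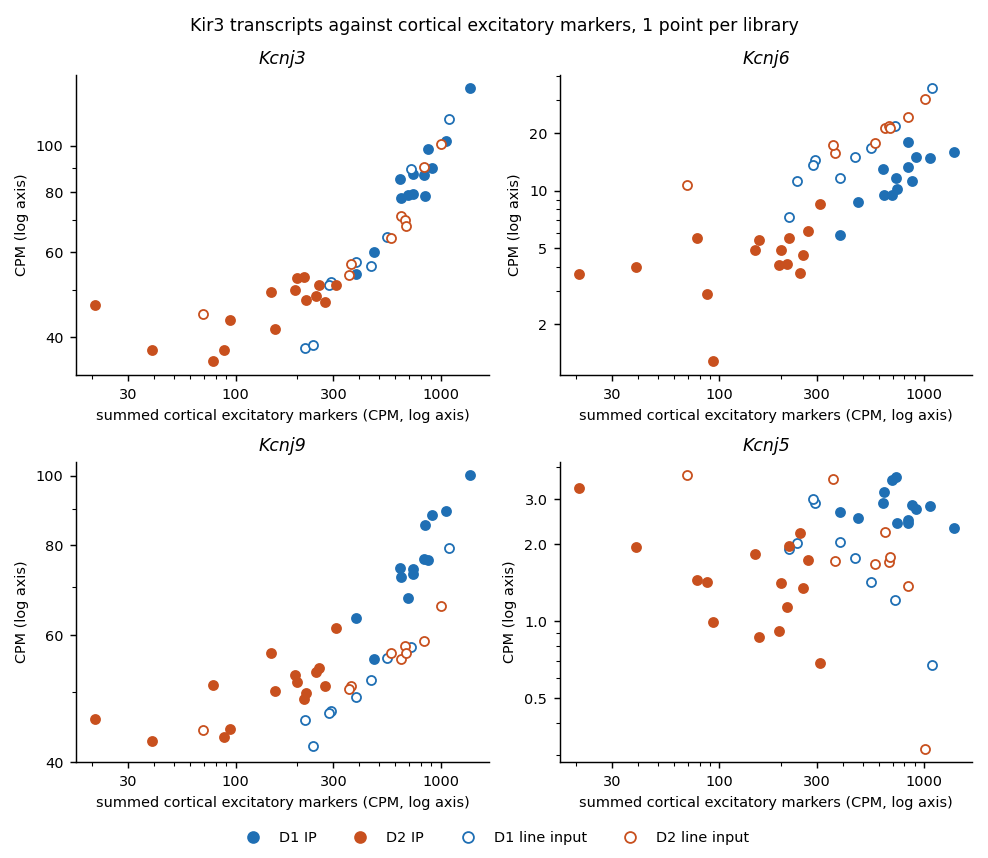
Level of each Kir3 gene (CPM, log axis) against the summed level of 4 cortical excitatory markers (CPM, log axis), 1 point per library, for D1 IPs, D2 IPs and inputs. *Kcnj3*, *Kcnj6* and *Kcnj9* rise with the marker sum within inputs and within D1 IPs, whereas *Kcnj5* falls with it in inputs.

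The genes whose log2 levels were most like each member's over the 28 IPs were listed by Pearson's r, as a description without a test, since the libraries fall into D1 and D2 IPs and share depth and cell makeup. For *Kcnj3* these were *Ppm1e* (0.98), *Olfm1* (0.97) and *Oxr1* (0.97), for *Kcnj9* *Rorb* (0.98), *Sox5* (0.97) and *Mical2* (0.96), and for *Kcnj6* *Rnf130*, *Sox5* and *Map3k9* (0.93 each). The likeness was lower for *Kcnj5* (*Endod1*, 0.89), *Kcnj2* (*Kdm5a*, 0.87), *Kcnj4* (*Tyro3*, 0.81), *Kcnj11* (*Zfp651*, 0.77) and *Kcnj12* (*Bsg*, 0.76). Among members, *Kcnj3* and *Kcnj9* had r = 0.94, *Kcnj6* and *Kcnj9* 0.90, *Kcnj3* and *Kcnj5* 0.59 and *Kcnj3* and *Kcnj2* -0.67.

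The comparison of IPs with inputs asks which transcripts the precipitate of each line holds at a higher share than the whole tissue. In D1 IPs, 7 of 8 members were higher than in the inputs of that line, where 81.8% of the 15404 genes tested differed (39.2% higher). In D2 IPs, 6 of 8 differed (82.7% of all genes did), 4 of them higher and 2 lower, where 37.8% of genes were higher and 44.8% lower. *Kcnj2*, *Kcnj12*, *Kcnj4* and *Kcnj11* were higher in both lines. Of the Kir3 genes, *Kcnj3* was higher in D1 and lower in D2, *Kcnj9* and *Kcnj5* were higher in D1 alone by this test, and *Kcnj6* was lower in D2.

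*Kcnj4* ranged from 113 to 161 CPM in D1-line inputs (median 134) and from 82.3 to 170.0 CPM in D2-line inputs (median 139), so no input reached the lowest IP of 239 CPM. Its log2 difference of IP from input was 1.18 (SE 0.0778, adjusted p = 6.48e-17) in D1 and 1.16 (SE 0.0762, adjusted p = 5.48e-17) in D2, the highest of the family in both lines. *Kcnj2* ranged from 35.6 to 59.6 CPM in D1-line and 37.6 to 53.3 CPM in D2-line inputs, also below all IPs, with differences of 0.75 and 1.00. *Kcnj11* was higher by 0.70 and 0.62 and *Kcnj12* by 0.60 and 0.45. Ranges of IPs and inputs did not overlap for these 4 genes in D1 and for *Kcnj4*, *Kcnj2* and *Kcnj11* in D2, against 48.3% and 44.3% of all genes tested.

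*Kcnj3* had inputs of 37.9, 57.3 and 89.2 CPM in D1 Con, 64.6, 38.5 and 114 in D1 Res and 52.0, 51.3 and 56.3 in D1 Sus. D2-line inputs had 90.4, 71.5 and 56.7 CPM in Con, 70.2, 68.0 and 53.7 in Res and 44.7, 64.3 and 101 in Sus. These inputs spread widely and overlapped both kinds of IP. The gene was higher in D1 IPs than in inputs by 0.45 (SE 0.158, adjusted p = 0.00955) and lower in D2 IPs by -0.57 (SE 0.152, adjusted p = 0.000861). With only the control libraries the D1 value was 0.39 (adjusted p = 0.224).

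*Kcnj6* was the member with the lowest level in IPs relative to inputs. D1-line inputs had 7.31 to 34.4 CPM (median 14.5) against 5.89 to 17.9 CPM in D1 IPs, and D2-line inputs had 10.7 to 30.2 CPM (median 21.2) against 1.28 to 8.54 CPM in D2 IPs. The ranges overlapped in D1 and not in D2. In D2 the difference was -2.12 (SE 0.211, adjusted p = 2.17e-11), and in D1 it was -0.45 (SE 0.212, adjusted p = 0.0518), which fell under the threshold in 9 of 46 fits that left out 1 library (adjusted p from 0.0201 to 0.271).

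*Kcnj9* had 42.1 to 79.5 CPM in D1-line inputs (median 49.2) and 44.3 to 65.9 CPM in D2-line inputs (median 56.7). It was higher in D1 IPs by 0.53 (SE 0.0857, adjusted p = 7.41e-07), and in D2 the value was -0.13 (SE 0.0827, adjusted p = 0.137). *Kcnj5* had 0.676 to 3.00 CPM in D1-line and 0.317 to 3.72 CPM in D2-line inputs. It was higher in D1 IPs by 0.63 (SE 0.231, adjusted p = 0.0122), and in D2 the value was -0.38 (SE 0.228, adjusted p = 0.118), which became -0.51 (adjusted p = 0.0179) without D2 Sus input replicate 3, the library at 0.317 CPM (7 counts), and -0.02 (adjusted p = 0.942) without D2 Sus input replicate 1.

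The difference between the lines in these IP to input differences was itself tested. It passed for all 4 Kir3 genes and no other member, where 25.4% of all genes passed, 13.6% in the direction of these genes. It was 1.68 (SE 0.303, adjusted p = 7.64e-05) for *Kcnj6*, 1.02 (SE 0.219, adjusted p = 0.000600) for *Kcnj3*, 1.011 (SE 0.324, adjusted p = 0.0178) for *Kcnj5* and 0.66 (SE 0.119, adjusted p = 6.09e-05) for *Kcnj9*. *Kcnj2* gave -0.25 (SE 0.102, adjusted p = 0.0626), which passed in 16 of 46 fits without 1 library (lowest adjusted p = 0.0132). *Kcnj5* no longer passed without D2 Sus input replicate 1 (0.66, adjusted p = 0.108), and with control libraries alone only *Kcnj9* passed. The 4 cortical markers also differed by line here, 4 of 4 in the direction of the Kir3 genes, and their part was not tested. Between the inputs of the 2 lines, 0 of 8 members differed in edgeR (0 at an unadjusted p under 0.05, 0 in DESeq2), where 0.0199% of 15063 genes did and 5.01% had an unadjusted p under 0.05.

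**Figure D4:**
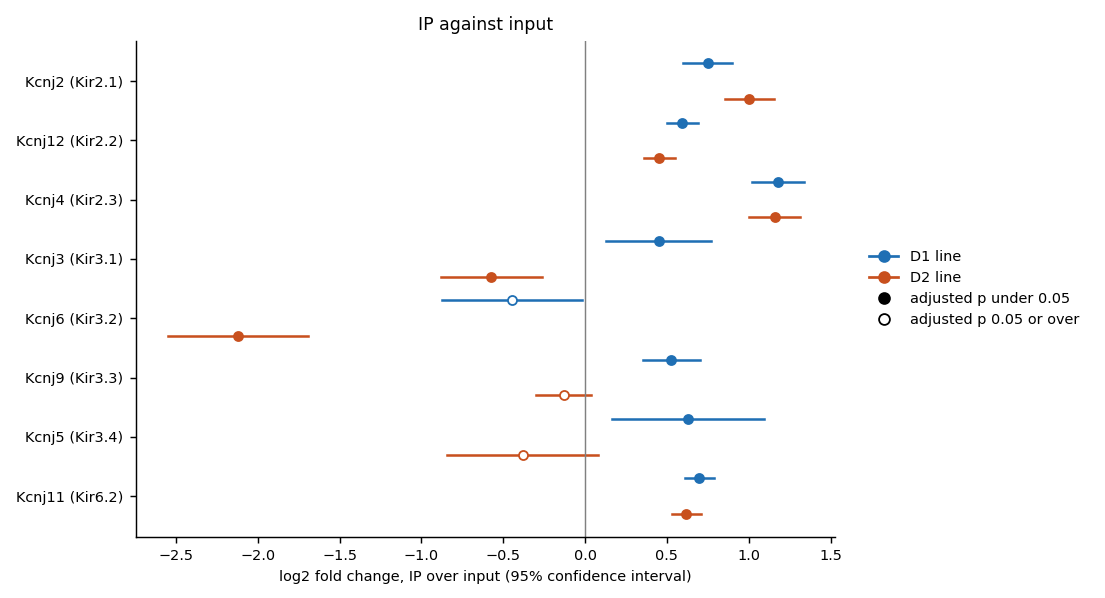
Log2 difference in level of IPs from inputs of the same line for each Kir gene (D1 or D2), with 95% intervals; filled points have an adjusted p under 0.05. *Kcnj4*, *Kcnj2*, *Kcnj11* and *Kcnj12* are to the right of 0 in both lines, whereas *Kcnj6* is at -2.12 in D2.

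Of the other 7 Kir genes of the table, 4 passed the filter in this comparison, and all 4 were lower in the IPs of both lines. *Kcnj10* (Kir4.1), the main Kir channel of astrocytes, had a mean of 23.3 CPM in D1 IPs and 195 CPM in their inputs (log2 difference -3.11, adjusted p = 3.57e-21) and 14.1 against 201 CPM in D2 (-3.84, adjusted p = 3.10e-24). *Kcnj16* (Kir5.1), its partner, gave -3.10 and -4.06, and *Kcnj8* (Kir6.1), the vascular counterpart of Kir6.2, gave -4.87 and -4.37. *Kcnj14* gave -1.12 and -1.63. *Abcc9*, the sulfonylurea receptor of vascular channels, followed *Kcnj8* with -4.51 and -4.88, whereas *Abcc8*, the neuronal receptor that pairs with Kir6.2, had small differences of 0.15 (adjusted p = 0.00487) and -0.12 (adjusted p = 0.0206). The difference between the lines passed in edgeR for *Kcnj16* (0.97, adjusted p = 0.00128), *Kcnj10* (0.73, adjusted p = 0.00484) and *Abcc8* (0.28, adjusted p = 0.00262). These went in the direction of the Kir3 genes. It did not pass for *Kcnj8*, *Kcnj14* or *Abcc9*.

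Some of these genes are close neighbors of members. *Kcnj9* lies 11892 bases from *Kcnj10* (chr1:172341210-172374085), and *Kcnj2* lies 38196 bases from *Kcnj16*. In D1 IPs *Kcnj9* was 0.53 above its inputs and *Kcnj10* was -3.11 from them, and *Kcnj2* was at 0.75 where *Kcnj16* was at -3.10. In D2, *Kcnj2* and *Kcnj16* again had opposite signs (1.00 and -4.06), whereas *Kcnj9* was at -0.13 (adjusted p = 0.137) and *Kcnj10* at -3.84. Antisense or other annotated genes overlap *Kcnj9* (Gm36937), *Kcnj6* (Gm41505, Gm22745) and *Kcnj3* (Gm26794). The library kit keeps the strand, but the counting mode is not given in the sources used here, so reads of these overlaps may be included.

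The receptors and G proteins that act on Kir3 channels were examined as lists. Of 24 receptors known to open GIRK channels, 23 were tested between D1 and D2 IPs, 16 were higher and 3 lower in D1 IPs, beside 19.5% higher and 21.2% lower among all genes tested, and the median log2 difference was 0.49 beside -0.02 over all genes. *Sstr4* (1.64), *Sstr3* (1.38) and *Adra2a* (1.30), receptors for somatostatin and noradrenaline, were among the higher, as were *Gabbr2* (0.63) of the GABA-B receptor and *Cnr1* (0.86), the CB1 cannabinoid receptor. *Drd2* (-1.82) and *Oprd1* (-1.22), the delta opioid receptor, were lower. The list includes *Drd2* and *Chrm4*, which are also subtype markers. Against inputs, *Sstr4* was at -0.11 in D1 IPs and -1.86 in D2 IPs, *Gabbr2* at -0.0084 and -0.74 and *Cnr1* at 0.23 and -0.77. *Sstr3* was at 0.97 and -0.64 and *Adra2a* at 0.39 and -1.12. Cortical excitatory markers were also higher in D1 than in D2 IPs. The part of cortical cells in the values of these receptors, G proteins and regulators was not tested.

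Of 16 G-protein subunits, 15 were tested, 8 were higher and 4 lower (median 0.20), to be read against the same shares over all genes. *Gnb4* (0.92) and *Gng2* (0.75) were the highest, and *Gnb5* (-0.45), the partner of R7-type RGS proteins, and *Gng7* (-0.41), which pairs with the olfactory-type G protein of MSNs, were lower. Of 21 regulators and anchors of GIRK and other Kir channels, 20 were tested, 5 were higher and 9 lower (median -0.07), where 40.6% of all genes differed in either direction. *Rgs6* was higher by 0.56 and *Rgs4* by 0.36, while *Rgs9*, the striatal RGS protein, was lower by -0.38 and *Kctd8*, an auxiliary GABA-B subunit, by -0.37. *Abcc8* was higher in D1 IPs by 0.24 (SE 0.0431, adjusted p = 4.60e-05), where *Kcnj11* was at 0.06.

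Stress groups were compared within each line to ask whether the members differ between control, resilient and susceptible mice. In edgeR, 0 of the 48 member values in 6 comparisons passed, 4 had an unadjusted p under 0.05, and DESeq2 called 0. The background was as low, with 0 genes called in 5 of the comparisons and 1 gene (0.00703%) in D1 Res against Con, while 1.62% to 5.24% of genes had an unadjusted p under 0.05. The adjusted p of the members was 0.860 or higher. The exact permutation test cannot go below 0.00794 with 4 against 5 or 5 against 5 libraries. With 4 against 4, as in D1 Res against Con, it cannot go below 0.0286.

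*Kcnj4* supplied 2 of the 4 values. In D1 its 5 Sus libraries had 282 to 308 CPM and its 4 Res libraries 308 to 329.5 CPM, so the ranges met near 308 CPM. The log2 difference was -0.13 (SE 0.0614, unadjusted p = 0.0460, adjusted p = 1.00, exact permutation p = 0.0159). In D2 the difference of Sus from Con was also -0.13 (SE 0.0580, unadjusted p = 0.0295, adjusted p = 1.00), with overlapping ranges of 239 to 324 and 308 to 338 CPM. The other values were *Kcnj9* in D1 Sus against Res (0.24, SE 0.110, unadjusted p = 0.0366) and *Kcnj5* in D2 Sus against Con (0.76, SE 0.264, unadjusted p = 0.00759). Each of these comparisons held 2 such members, beside 4.08% of genes in D1 Sus against Res and 3.60% in D2 Sus against Con. For *Kcnj5* the D2 Sus libraries spread from 0.686 to 3.33 CPM, around the D2 Con range of 0.869 to 1.73 CPM.

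The interval of each stress difference gives the size that these data leave possible. For *Kcnj4* in D1 Sus against Con the value was -0.11 with an interval of -0.24 to 0.01, and for *Kcnj3* it was 0.20 with -0.15 to 0.55. *Kcnj6*, at a lower level, had 0.42 with -0.19 to 1.02. The summed cortical markers ran from 631 to 1390.0 CPM in D1 Sus and from 387 to 1069.7 CPM in D1 Con, and the D1 Sus library with the highest sum also had the highest *Kcnj3* (132 CPM) and *Kcnj9* (100.2 CPM) of the 28 IPs of the stress groups. The part of these cells in the stress values was not tested.

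Stress effects were also compared between the lines. Of 24 values in 3 comparisons, 0 passed in edgeR, 1 had an unadjusted p under 0.05, and DESeq2 called 0, where 0% of genes passed. The 1 value was *Kcnj5*, whose Sus to Con difference was -0.81 lower in D1 than in D2 (SE 0.367, unadjusted p = 0.0357, under 0.05 in 1.74% of genes). In inputs, 0 of 24 values passed in edgeR (1 at an unadjusted p under 0.05, 0 in DESeq2), where again 0% of genes passed. That value was *Kcnj11* in Res against Con, at 38.0 against 35.1 CPM (0.11, SE 0.0498, unadjusted p = 0.0323, under 0.05 in 3.18% of genes).

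The last comparison set the 4 libraries labelled Sirt1-KO against the 4 D1 Con libraries. *Sirt1* encodes a NAD-dependent deacetylase. The paper does not describe the labelled libraries. Whether they were prepared and sequenced together with the D1 Con libraries is not given in the sources used here. A difference by label and a difference by batch therefore cannot be told apart. *Sirt1* itself had 13.1, 16.6, 14.8 and 14.4 CPM in D1 Con and 15.2, 16.2, 13.2 and 10.2 CPM in the libraries labelled Sirt1-KO. These ranges overlapped, and the log2 difference was -0.10 (SE 0.130, adjusted p = 0.767), so the level of the gene does not tell the labels apart. The part removed by Cre is not given in the labels, and counts over the whole gene would include what is left. Of the 4 labelled libraries, 3 lay within the D1 Con range and 1 below it. Directions below therefore rest on the label.

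In edgeR, 0 of 8 members passed, where 1.80% of 13626 genes did. However, 5 of 8 had an unadjusted p under 0.05, which 16.6% of genes had, and DESeq2 called 2. Levels of this table were scaled separately, so that its D1 Con values differ from those above. The smallest p that the exact permutation test of 4 against 4 can give is 0.0286.

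*Kcnj12* had 26.4, 26.4, 22.3 and 22.8 CPM in D1 Con and 18.4, 18.7, 17.7 and 21.4 CPM in the libraries labelled Sirt1-KO. All 4 labelled libraries were lower, as for 9.55% of genes whose ranges did not overlap in either direction. The log2 difference was -0.36 (SE 0.0870, adjusted p = 0.0542, exact permutation p = 0.0286). It passed in DESeq2 and, in edgeR, without labelled replicate 5 (-0.43, adjusted p = 0.0104).

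*Kcnj5* had 2.53, 2.67, 2.29 and 3.49 CPM in D1 Con and 2.00, 1.55, 1.27 and 2.23 CPM in the libraries labelled Sirt1-KO, again without overlap. The log2 difference was -0.65 (SE 0.225, adjusted p = 0.172, exact permutation p = 0.0286). The other Kir3 genes had values of the opposite sign.

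*Kcnj3* had 51.1, 96.7, 82.5 and 75.4 CPM in D1 Con and 119.7, 136, 145 and 79.3 CPM in the libraries labelled Sirt1-KO. *Kcnj6* had 5.57, 14.1, 9.71 and 11.1 against 13.1, 23.5, 21.1 and 14.4 CPM, and *Kcnj9* had 59.96, 84.5, 69.2 and 70.6 against 92.3, 86.0, 102 and 78.4 CPM. In each of the 3 genes most labelled libraries were above the D1 Con range and 1 lay within it. The log2 differences were 0.65 (SE 0.247, adjusted p = 0.250) for *Kcnj3*, 0.84 (SE 0.300, adjusted p = 0.222) for *Kcnj6* and 0.34 (SE 0.105, adjusted p = 0.142) for *Kcnj9*. *Kcnj9* passed in DESeq2 and, in edgeR, without D1 Con replicate 2 (0.43, adjusted p = 0.0437).

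The remaining members had smaller values. *Kcnj4* had 313, 309, 285 and 289.9 against 290.2, 320.2, 331 and 290.4 CPM, overlapping throughout, with a log2 difference of 0.04 and an interval of -0.09 to 0.17. *Kcnj2* had -0.20 with -0.48 to 0.09, and *Kcnj11* -0.12 with -0.26 to 0.02.

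Marker sums differed between these groups too. Cortical markers summed to 366 to 1014 CPM in D1 Con and 827 to 1583 CPM in the libraries labelled Sirt1-KO, with 0 of 4 genes called and a median log2 difference of 0.89. D1-MSN markers summed to 1192 to 1469 against 896 to 1122 CPM, with *Pdyn* (-0.37) and *Tac1* (-0.36) called lower among 4. GABA interneuron markers summed to 102 to 135 against 141 to 169 CPM, with *Nos1* (0.56) and *Npy* (0.46) called higher among 5. *Pvalb* of the same list went the other way, without a call (-0.82, edgeR, adjusted p = 0.0509). Cholinergic markers summed to 11.2 to 14.0 against 4.41 to 9.49 CPM, with 2 of the 5 tested called lower. No gene of these lists was at 0 in all libraries of a group, and the part of these cells in the Kir values was not tested. Among the partners of Kir3 channels, *Oprk1*, the kappa opioid receptor (-0.77), and the GABA-B auxiliary subunits *Kctd8* (-0.45) and *Kctd12* (-0.34) were lower in the libraries labelled Sirt1-KO. They were the only genes called in the lists of receptors, G-protein subunits and regulators, where 1.15% of all genes were called lower. The GABA-B subunits *Gabbr1* (-0.02) and *Gabbr2* (0.48) were not called.

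**Figure D5:**
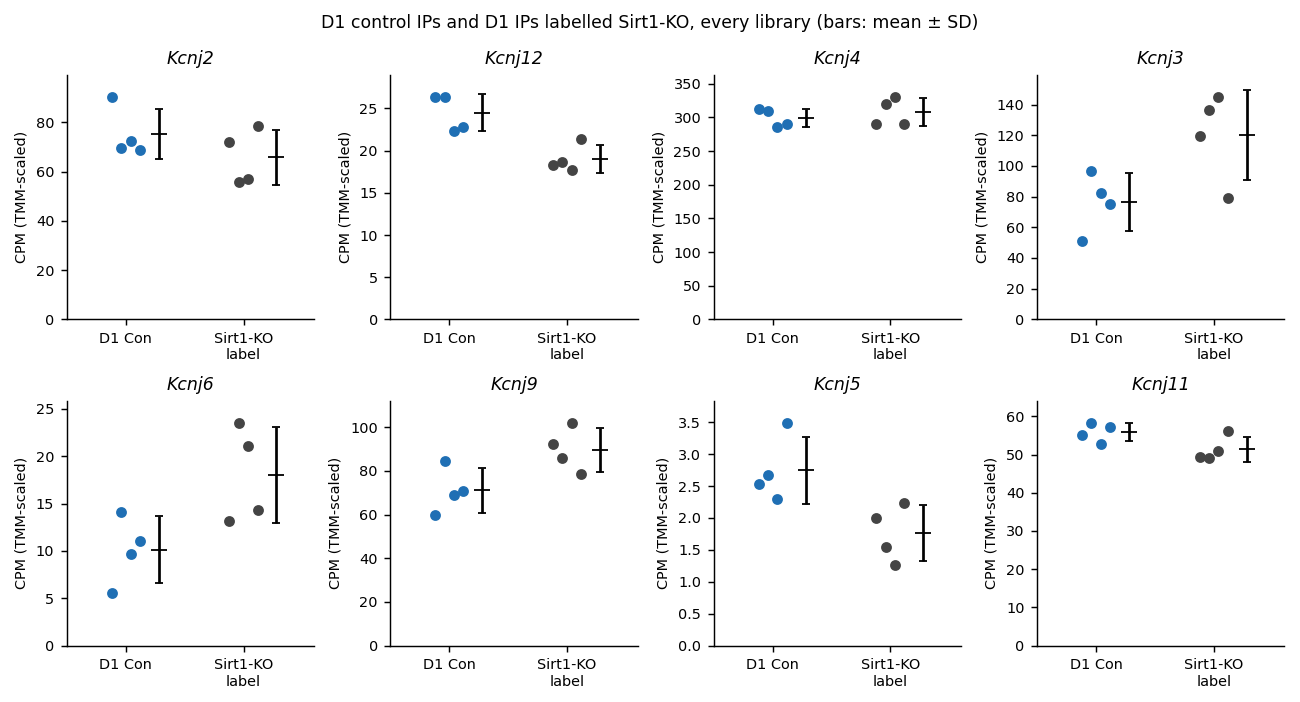
Normalized level (CPM, linear axes from 0) of the 8 Kir genes in the 4 D1 Con libraries and the 4 libraries labelled Sirt1-KO, 1 point per library, with mean ± SD as bars. *Kcnj12* (17.7 to 21.4 against 22.3 to 26.4 CPM) and *Kcnj5* do not overlap between the groups, whereas the other genes do.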

How the data were processed

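RiboTag IP and input RNA was sequenced as stranded poly-A libraries. Per the labels and the study's methods, the authors trimmed reads with cutadapt, checked them with FastQC, aligned them to mm10 with STAR and counted reads per gene with HTSeq, and deposited raw counts in 2 tables; versions, annotation and strand setting are not given in the sources used here. Entries that name no gene (18.0% to 28.3% of reads in IPs, 35.9% to 40.0% in inputs) were left out, as were 2 columns that matched no sample label. The 4 D1 Con columns are identical in both tables, and the tables were analysed separately. In each fit, genes were kept by filterByExpr of edgeR 4.0.16 (minimum count 10, total 15), scaled by TMM and tested with the robust quasi-likelihood test in R 4.3.3 with Benjamini-Hochberg adjustment over all genes tested; an adjusted p under 0.05 was called, and a prior count of 2 was used for log2 levels. IPs, IPs with inputs, inputs, and the libraries labelled Sirt1-KO with D1 Con were fitted separately, each over all its groups, without covariates. DESeq2 1.42.0, DESeq2-type size factors, other filters, a replicate block and leaving out each library were the alternatives. Exact permutation tests were used for single genes in small groups and 100000 resamples otherwise. The scripts were tested on simulated counts. Depth was 18384265 to 31009626 counts per library in the first table, and intervals reflect the spread between libraries. The labels number replicates without naming mice, so p-values measure the spread between these libraries, each a pool of 2 mice. Named genes are the 8 members and genes of lists of partners and cell markers; the members and lists were chosen with earlier results of these data known. Of the cortical markers, 1 gene is not reported here and entered no sum.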

Additional observations from a re-analysis of the deposited data

Results flagged for a closer look

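*Kcnj3* in D1 Sus replicate 3 stood apart from the other 4 libraries of its group, at 132 CPM against 78.8 to 89.6 CPM. It was the only such value among 56 groups of 4 or 5 libraries examined. Chance gives such a value in about 1 of 20 groups, so 1 among 56 is no more than chance gives. The same library had the highest summed cortical markers of the 28 IPs of the stress groups, 1390.0 CPM, and the part of these cells was not tested.

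The difference of IP from input differed between the D1 and D2 lines for the 4 Kir3 genes by the test of the difference itself. The log2 difference of D1 from D2 was 1.68 for *Kcnj6*, 1.02 for *Kcnj3*, 1.011 for *Kcnj5* and 0.66 for *Kcnj9*. For *Kcnj5* it was 0.66 (adjusted p = 0.108) without D2 Sus input replicate 1.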

How the results depend on the processing

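Of 5644 member values under all alternatives (8 other settings and each of 50 libraries left out), 5566 kept their side of the threshold, 52 gained a call and 26 lost one. A change of sign occurred in 191, all of them values without a call, with an unadjusted p of 0.337 or more, and in 0 called values. With a fold over 1.5 as well, 3 members differed between D1 and D2 IPs in place of 6. At an unadjusted p under 0.05 the number of members was 5 in D1 Sus against D2 Sus, 2 in D1 Sus against Res, 2 in D2 Sus against Con, 1 in the line difference of Sus against Con, 1 in inputs of Res against Con and 5 in the libraries labelled Sirt1-KO. With only the control libraries, 1 member passed in the line difference of IP against input. For the libraries labelled Sirt1-KO, 0 members became 1 with all genes of at least 1 count, 2 with DESeq2 and 0 to 1 with a library left out, while over all genes 245 calls became 741 with DESeq2 and 53 (without D1 Con replicate 3) to 831 (without labelled replicate 5) with a library left out. With the replicate number as a block, 5 members and 1671 genes passed there. The numbers were not taken to pair libraries: the correlations of deviations were -0.0082 to 0.077 over 3 such pairs, and -0.25 to 0.58 over 18 pairs of IP and input, of which 5 correlated best with their own number. Depth limits *Kcnj5* most, with 7 to 100 counts per library. The cause of these changes was not tested.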
